A study of Caenorhabditis elegans with 2 samples.

Results

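Binding of the transcription factor LAG-1 was described here at the 5 genes that encode the Notch receptors of *Caenorhabditis elegans* and the proteins that act on the cleaved receptor: lin-12, glp-1, lag-1, sel-8 and sel-10. The genes were chosen by function, with earlier results of these data known, out of 19973 protein-coding genes. Every entry of the deposited ranking that compares the replicates was taken where its summit lay between 2000 bp upstream of a gene's 5′ end and its 3′ end, a stretch called the gene's span. This gave 77 of the 125458 entries of the ranking, namely 20 at lin-12, 15 at glp-1, 25 at lag-1, 10 at sel-8 and 7 at sel-10.

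LIN-12 and GLP-1 are transmembrane receptors of the Notch family, which are cut by proteases when a ligand on a neighbouring cell binds them. The freed intracellular domain moves to the nucleus and joins LAG-1, the CSL-type protein that binds DNA, and SEL-8, a glutamine-rich protein that serves as the worm's counterpart of Mastermind. SEL-10 is an F-box protein of the Fbw7 type that recruits ubiquitin ligase and promotes turnover of the receptors' intracellular domains. In the adult, GLP-1 maintains the germline stem cells at the distal end of the gonad, and LIN-12 is known for cell fate decisions in the gonad and the vulva. LAG-1 and its relatives in other animals recognise the core TGGGAA, most often preceded by G or A.

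There was 1 group, with 2 biological replicates that carry their numbers in the labels, so the design has no contrast between conditions and no groups could be tested against each other. Both replicates were whole worms of strain RW12314, in which CRISPR had added TY1, EGFP and 3xFLAG to lag-1 at its own locus on chromosome IV (allele st12314), so that LAG-1 was made from its endogenous gene. The worms were synchronised by starving L1 larvae hatched after bleaching and were taken as young adults of 62 hours. Chromatin was sonicated and precipitated with an antibody to GFP. Binding in a few germline cells and weak binding in many cells cannot be told apart in whole worms, and precipitates from worms without the tag were not analysed here.

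Each entry carries a signal, by which the authors' caller measured its strength against the control; the headers do not name its unit. It also carries the 2 signals compared for it, which come from replicate 1 and replicate 2. The irreproducible discovery rate (IDR) estimates the share of false pairings among entries ranked as well or better in both replicates. An entry is called a peak here where its IDR was 0.01 or below and the authors kept it in their conservative list. Over the whole ranking this held for 291 entries, 0.232% of all, and 297 protein-coding genes, 1.49%, had such an entry in their span. Read totals are not in the files used, so depth is unknown, and the 2 replicate values of each entry are the sole measure of its spread.

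Only lag-1 had a peak. It was 1 of the 77 entries and lay in the first intron of lag-1 at IV:6097079-6097314 of the ce11 (WBcel235) assembly, 1790 bp downstream of the start of the gene. It held 2 copies of the LAG-1 site next to its summit. The sequence of the peak is printed first, 5′ to 3′ on the plus strand as in RefSeq's WBcel235 assembly, because it is the one stretch of the 5 genes that passed the threshold. The capitals mark matches to RTGGGAA, that is GTGGGAA or ATGGGAA, which read TTCCCAC or TTCCCAT on the other strand. lag-1 is transcribed from the plus strand, so both copies in the peak run against the gene.
lag-1 peak: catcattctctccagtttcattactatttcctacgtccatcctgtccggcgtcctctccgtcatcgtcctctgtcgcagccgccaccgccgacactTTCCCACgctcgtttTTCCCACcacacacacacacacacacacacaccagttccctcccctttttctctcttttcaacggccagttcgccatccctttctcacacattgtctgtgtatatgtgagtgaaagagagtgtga

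The same intron held 3 places where a pair of sites lay close together on 1 strand, including the pair in the peak. The 3 pairs are shown on the minus strand with 10 flanking bases at each end, so that their spacing and orientation can be read. They lie at IV:6096072-6096113, IV:6097165-6097206 (inside the peak) and IV:6097483-6097526, and the capitals again mark the sites.
pair 1: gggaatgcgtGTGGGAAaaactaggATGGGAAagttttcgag
pair 2: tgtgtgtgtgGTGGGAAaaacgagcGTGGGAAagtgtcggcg
pair 3: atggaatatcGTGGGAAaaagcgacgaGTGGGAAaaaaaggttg

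For the other entries the results turn on, the site nearest to the summit is shown with its flanks, also from RefSeq's WBcel235 assembly. The first lin-12 window lies upstream of the gene at III:9072194-9072220 on the plus strand and the second in an intron at III:9066174-9066200 on the plus strand. The glp-1 window lies in an intron at III:9092545-9092571 on the plus strand. The windows of the second strongest lag-1 entry lie at IV:6104412-6104438 on the minus strand and IV:6104536-6104562 on the plus strand. The sel-8 window lies upstream of sel-8, inside coding sequence of the neighbouring gene mrps-31, at III:3628515-3628541 on the minus strand, and the sel-10 window lies upstream at V:13818448-13818474 on the plus strand.
lin-12 upstream: agagaagagaGTGGGAAcggaaggaag
lin-12 intron: acggtaatcgATGGGAAactatgcaat
glp-1 intron: ggtggtggtgGTGGGAAacaggcgata
lag-1 second entry, minus strand: aggagagcggGTGGGAAaacgaatagt
lag-1 second entry, plus strand: actattctcgGTGGGAAtcttcgcatc
sel-8 upstream: aaggaaaacaATGGGAAtatccaatcg
sel-10 upstream: cgtatttcagATGGGAAttgcagttta

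Neither receptor gene had a peak. The strongest entry of lin-12 (WBGene00003001, III:9060221-9071472, minus strand) lay 627 bp upstream of the gene at III:9071981-9072216, with a signal of 18.4 in replicate 1 and 25.7 in replicate 2. Its combined signal was 39.3 and its IDR 0.0650, the second lowest IDR among the strongest entries of the 5 genes. It ranked 5499 by signal and missed both the threshold of 0.01 and that of 0.05. The GTGGGAA shown for lin-12 upstream of the gene had its centre 108 bp from this summit, just beyond the window of 100 bp in which sites were counted. In replicate 2's own ranking the strongest lin-12 entry lay at III:9072040-9072249, 673 bp upstream (signal 25.7, IDR 0.686), and this site was inside its window.

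The next entries of lin-12 were weaker or differed more between replicates. An entry in an intron at III:9068441-9068676 had a signal of 9.90 in replicate 1 and 24.1 in replicate 2, with an IDR of 0.287. The entry over the 5′ UTR, with its summit 26 bp from the start of the gene, had signals of 12.6 and 16.6 and an IDR of 0.249. Replicate 2 gave the higher signal at all 3 of these entries, and at 17 of the 20 entries of lin-12. Over the 20 entries the signal ranged from 3.45 to 25.7 in replicate 2, with a median of 14.3, and from 4.24 to 18.4 in replicate 1, with a median of 8.80.

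The LAG-1 site was frequent in lin-12, and in the replicate ranking the entries with a site within 100 bp were not its strongest. The span held 14 sites, 6 of them GTGGGAA and 8 ATGGGAA, which came to 1.06 sites per kb and was a higher density than in 97.7% of protein-coding genes. Of the 20 entries, 5 had a site within 100 bp of the summit, and none of these was among the 7 strongest. The strongest of the 5 lay over coding sequence 6802 bp into the gene, with a signal of 9.16 in replicate 1, 13.6 in replicate 2 and 22.6 combined, and an IDR of 0.365. The others had combined signals of 15.7 (1506 bp upstream), 15.2 (1011 bp downstream), 10.3 (3891 bp downstream) and 8.72 (5294 bp downstream). The last of these was the weakest lin-12 entry, and its site, the ATGGGAA in the intron shown for lin-12, had its centre 9 bp from the summit.

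The entries of glp-1 (WBGene00001609, III:9092241-9099698, plus strand) were the weakest at their top among the 5 genes. The strongest lay in an intron at III:9093865-9094100, 1742 bp downstream of the start, with a signal of 20.5 in replicate 1 and 16.0 in replicate 2. The second, at III:9092300-9092535 over coding sequence near the start, had signals of 19.2 and 12.4. Both were higher in replicate 1, whereas 12 of the 15 glp-1 entries were higher in replicate 2. Their combined signals were 35.9 and 32.8 and their IDRs 0.140 and 0.238. The third, over coding sequence 1146 bp downstream of the start, had a signal of 12.8 in replicate 1, 16.0 in replicate 2 and 28.1 combined, and an IDR of 0.254.

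No glp-1 entry had a LAG-1 site within 100 bp of its summit, out of 15, and over all entries 6.44% had a site there. The span held 4 sites, or 0.423 per kb, a higher density than in 71.3% of protein-coding genes but lower than in lin-12. The nearest to a strong entry was the GTGGGAA shown for glp-1, whose centre lay 140 bp from the second entry's summit.

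**Figure D1:**
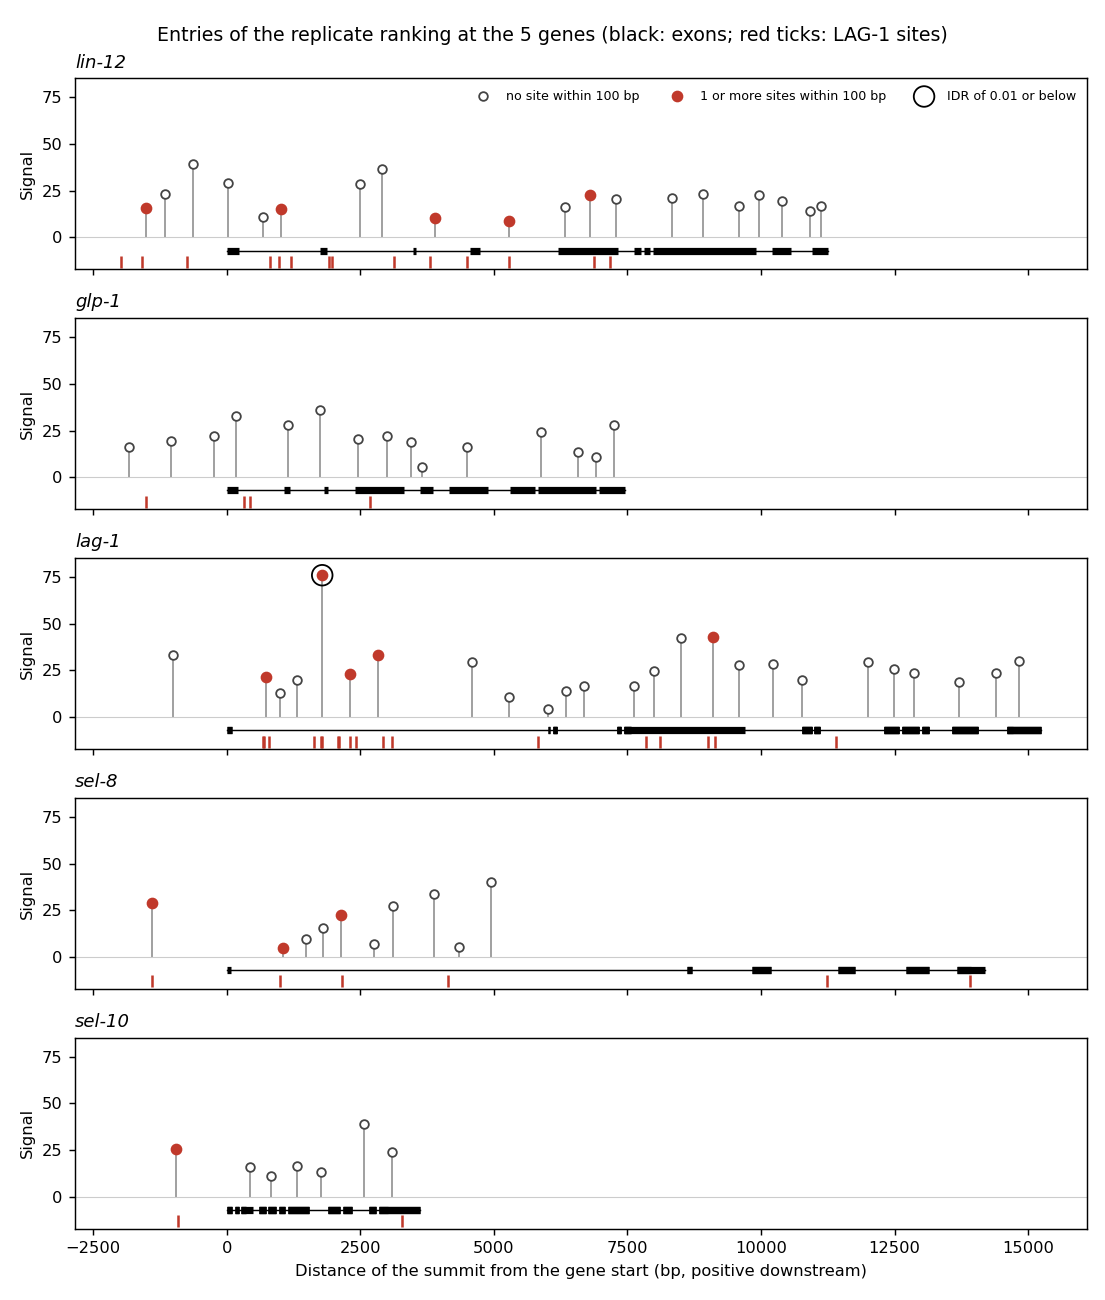
Combined signal (vertical axis, the authors' unit) of the 77 entries against the distance of their summit from the gene start in bp (horizontal axis), with 1 panel per gene, exons as black bars, LAG-1 sites as red ticks and filled circles for entries with a site within 100 bp. The ringed lag-1 entry at 1790 bp, with a signal of 75.9, stands above all others, of which the next has 42.7; sel-8 has no entry beyond 4944 bp.

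At lag-1 (WBGene00002245, IV:6095407-6110655, plus strand), which encodes the precipitated protein itself, the peak had a signal of 29.7 in replicate 1 and 46.8 in replicate 2. Each was the highest of the 77 entries in its replicate. The combined signal was 75.9 with an IDR of 0.00315, and by signal the entry ranked 171 of 125458. This strongest entry of lag-1 was higher than that of 99.5% of the 19055 protein-coding genes with an entry. The strongest entries of the other 4 genes lay between the percentiles 64.1 and 78.1, against a median of 32.7 for the strongest signal of a gene. A strongest entry is picked from all entries of a gene, from 7 at sel-10 to 25 at lag-1. The genes compared were not matched for that number or for span length.

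The replicates differed in how well they supported the lag-1 peak when each was ranked alone. In replicate 1's own ranking the peak had exactly the same borders, ranked 727 of 61205 and had an IDR of 0.271, and it was not kept. In replicate 2's own ranking it lay at IV:6097090-6097299, ranked 152 of 56445 and was kept, with an IDR of 0.00475. The lists compared within replicate 1 gave it signals of 24.1 and 12.1, and those within replicate 2 gave 25.2 and 22.0. The IDR of a replicate's own ranking thus compares parts of 1 replicate. It is not the same measure as the IDR of 0.00315 between the replicates. The pooled ranking kept it at rank 170 with an IDR of 0.00574. That ranking draws on the same 2 replicates and gave the entry the same borders and combined signal, so it adds no separate support.

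Sites and summit coincided at the lag-1 peak. The 2 GTGGGAA copies had their centres 4 and 19 bp from the summit, and their starts lay 15 bp apart. A strongest entry with a site was found at 1302 of the 19055 genes, or 6.83%, and 1 with at least 2 sites at 52 genes, or 0.273%. Of the 5 genes, lag-1 alone had a strongest entry with a site in the replicate ranking. In the single-replicate rankings there were 2 such genes, lag-1 and sel-8 in replicate 1's (the sel-8 entry upstream, in mrps-31) and lag-1 and lin-12 in replicate 2's. GC content within 100 bp of the peak's summit was 53.7%, against a median of 37.8% over all entries. At the strongest entries of the other 4 genes it ranged from 34.8% (sel-10) to 52.2% (sel-8). The second strongest lag-1 entry, which was no peak, had 54.2%.

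No other lag-1 entry reached an IDR of 0.05, which 1716 entries of the ranking did, or 1.37%. The second strongest, at IV:6104390-6104625, 9101 bp downstream of the start over coding sequence of 1 of 4 transcripts, held the 2 sites shown for it, which read away from each other. Its signal was 9.75 in replicate 1 and 29.3 in replicate 2, a difference that went with an IDR of 0.288 despite a combined signal of 42.7. The third, 8501 bp downstream of the start, was more even, with 17.8 in replicate 1, 21.3 in replicate 2 and 42.2 combined. It lay over the 5′ UTR of 1 of 4 transcripts, held no site and had an IDR of 0.103.

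The peak was the strongest of several entries with sites in the first intron. An entry 2840 bp downstream of the start showed signals of 16.8 and 14.7 in replicates 1 and 2, a combined signal of 33.3, an IDR of 0.208 and 1 site. Its summit also lies in the non-coding RNA gene K08B4.41. The entry 2309 bp downstream had signals of 8.56 and 16.9, a combined signal of 23.1, an IDR of 0.363 and 1 site 3 bp from the summit. The entry 738 bp downstream held 3 sites, with signals of 7.59 and 15.02, a combined signal of 21.3 and an IDR of 0.403. These 3 entries fell short of the peak in both replicates.

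**Figure D2:**
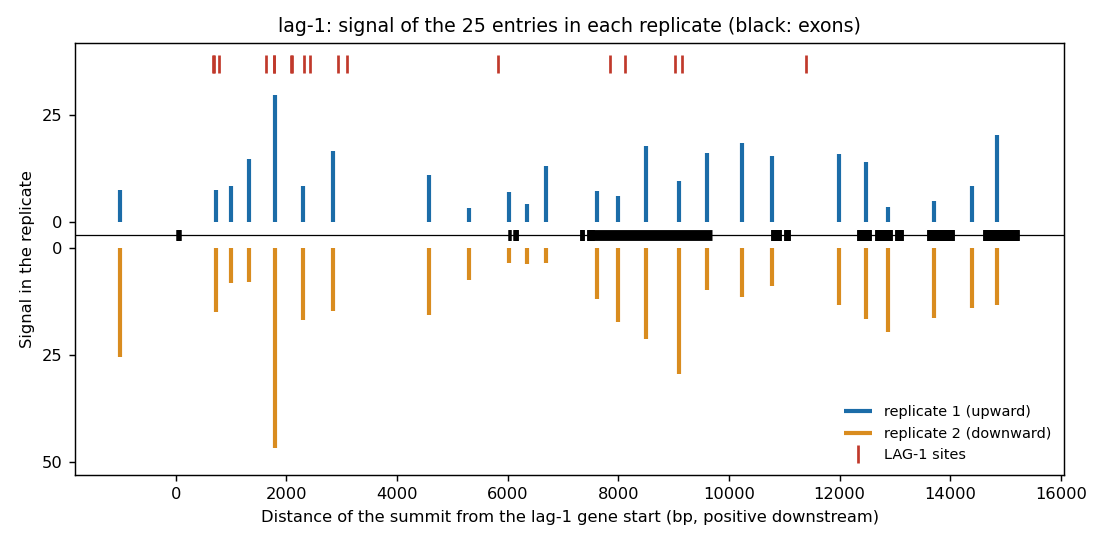
Signal of the 25 lag-1 entries in replicate 1 (upward bars) and replicate 2 (downward bars), in the authors' unit, against distance from the gene start in bp, with exons in black and LAG-1 sites in red. The first intron's peak is the tallest bar in both replicates, at 29.7 and 46.8.

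The first intron (IV:6095505-6101421, 5917 bp) held 13 of the 18 sites of the lag-1 span, 9 of them GTGGGAA, or 2.20 sites per kb of intron. Over its whole span lag-1 had 1.04 sites per kb, a higher density than in 97.6% of protein-coding genes, where the median was 0.282. That density or more was found in 471 genes, and 18 sites or more in 23 genes. The peak's summit lay 4315 bp and 4322 bp upstream of the starts of 2 shorter lag-1 transcripts, of which the first begins 6105 bp downstream of the gene start. The entry closest to the end of the coding sequence had its summit 128 bp from the last coding base. Its signals were 20.5 and 13.3, with a combined signal of 29.9 and an IDR of 0.201.

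**Figure D3:**
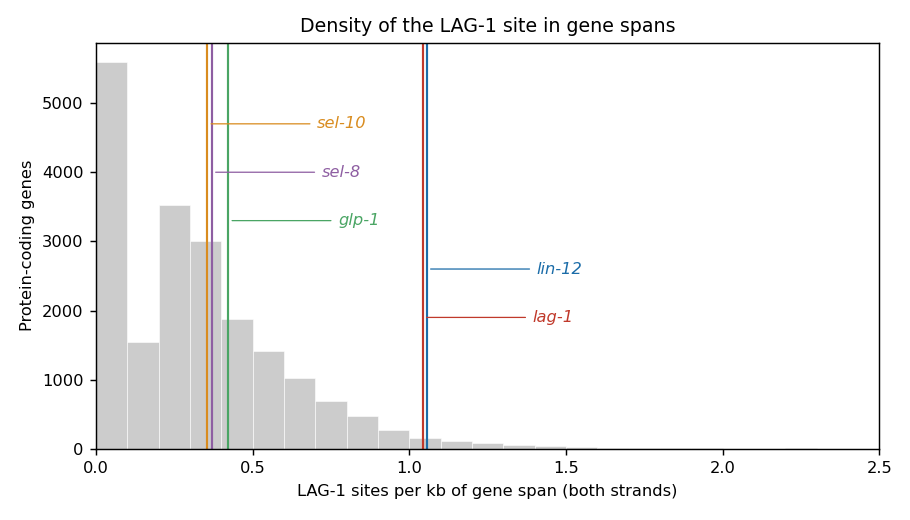
Number of protein-coding genes (vertical axis) by LAG-1 sites per kb of gene span, both strands (horizontal axis), with a line for each of the 5 genes. lin-12 (1.06) and lag-1 (1.04) lie in the upper tail, and glp-1 (0.423), sel-8 (0.371) and sel-10 (0.356) near the bulk.

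The 3 pairs of sites in the first intron had their starts 15, 15 and 17 bp apart, with all 6 sites on the minus strand. A spacing of 14 to 18 bp was taken after these values were seen, so the following counts only describe them. On 1 strand, such pairs occurred 181 times in the genome, in the spans of 79 protein-coding genes (0.396%), and 15 genes had at least 3. None lay in the spans of the other 4 genes. A pair near the summit was found at 31 of all entries and at 1 of the 291 peaks, which was the lag-1 peak. With the strand left free, the count was 37 entries and 2 peaks, the second being that of sygl-1, a target of GLP-1 in germline stem cells.

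Other peaks with at least 2 sites near the summit were few. Of the 291 peaks, 20 had a site and 6 had at least 2 (2.06%). The 20 are close to the share of all entries with a site, 6.44%, whereas 0.338% of all entries had at least 2. The 6 peaks lay in the spans of lag-1 and 5 other genes, except for 1 that lay in no protein-coding gene's span. The Y43F8C.7 and mrps-28 spans shared 1 of these peaks, with signals of 47.2 and 49.7 in replicates 1 and 2. The col-163 peak had 37.7 and 34.4, and the tatn-1 peak 28.9 and 29.7. These 3 peaks held 2 sites each, and the replicates were closer to each other there than at lag-1. The peak of sygl-1 held 4 sites, with signals of 52.6 and 42.3.

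The sel-8 gene (WBGene00004765, III:3612951-3627142, minus strand) had no peak, but its strongest entry had replicate signals closer to each other than those at the other 4 genes. This entry lay in the first intron at III:3622080-3622315, 4944 bp downstream of the start, with 20.5 in replicate 1 and 19.9 in replicate 2, a combined signal of 40.1 and an IDR of 0.0857. The second, 3888 bp downstream of the start in the same intron, had 12.5 and 20.2, a combined signal of 33.6 and an IDR of 0.217. Neither held a LAG-1 site. The third, 1387 bp upstream of the gene, had its summit 1 bp from the centre of the ATGGGAA shown for sel-8. Its signal was 21.2 in replicate 1, the highest of any sel-8 entry there, but 9.56 in replicate 2, and its IDR was 0.332. Since it lies within coding sequence of mrps-31, which encodes a mitochondrial ribosomal protein, its assignment to sel-8 rests on distance alone.

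The other 2 sel-8 entries with a site were weak: one 2141 bp downstream of the start had signals of 5.88 and 15.9 with an IDR of 0.441, and one 1057 bp downstream had a combined signal of 4.65. All entries of sel-8 lay upstream or in the first intron, and the last 9247 bp of the gene (III:3612951-3622197) held no summit of the replicate ranking. The longest such stretch in the other 4 genes was 1743 bp, in lag-1. Among 1787 protein-coding genes with a span of 9247 bp or more, 155, or 8.67%, had a stretch without a summit at least that long. The sel-8 stretch was 49.8% soft-masked repeats in the assembly, and it held 1 entry of the pooled ranking, 2 of replicate 2's own and none of replicate 1's. Of the replicate 2 entries, 1 lay 54 bp inside its edge and overlapped the strongest sel-8 entry.

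At sel-10 (WBGene00004767, V:13819361-13822980, plus strand) the strongest entry rested on replicate 2. It lay in an intron at V:13821808-13822043, 2565 bp downstream of the start, with a signal of 9.44 in replicate 1 and 23.3 in replicate 2, a combined signal of 38.9 and an IDR of 0.310. The second, 950 bp upstream of the gene, had 12.1 and 16.6, a combined signal of 25.6 and an IDR of 0.263. The sole sel-10 site near a summit, the ATGGGAA shown for sel-10, belonged to this entry and had its centre 50 bp from the summit. The third, over the 3′ UTR of 2 of 3 transcripts, had 12.5 and 14.8, a combined signal of 24.1 and an IDR of 0.276. The span held 2 sites, or 0.356 per kb, and neither was GTGGGAA.

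**Figure D4:**
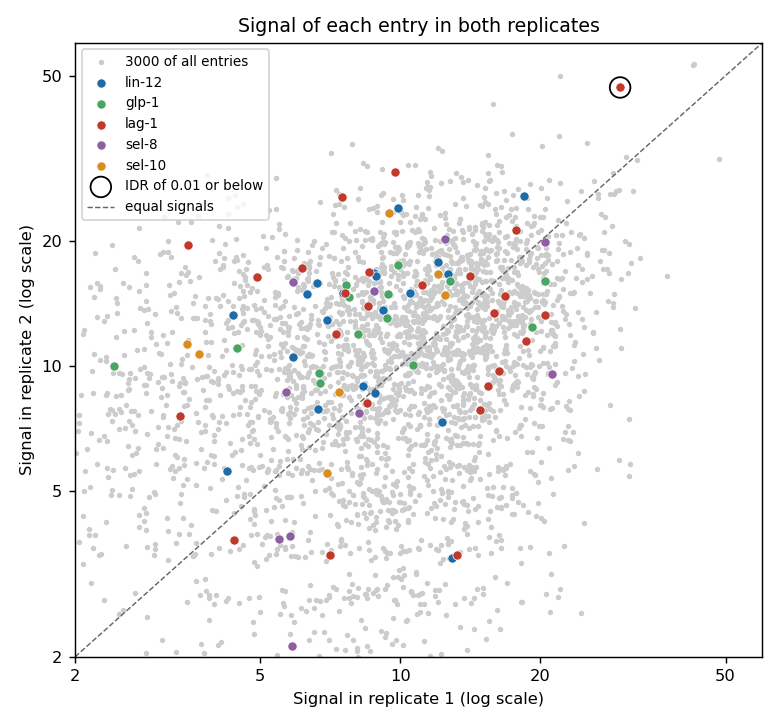
Signal in replicate 2 against signal in replicate 1 (both log axes, the authors' unit) for the 77 entries, coloured by gene, over 3000 entries drawn from the ranking in grey; grey points beyond the axes are not shown. The ringed lag-1 peak (29.7, 46.8) lies apart from the other 76, and most coloured points lie above the dashed line of equal signals.

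Over the 77 entries together, the combined signal was close to that of the ranking at large, with a median of 21.3 against 19.4 over all entries. The medians of the replicates departed in opposite directions. The median was lower in replicate 1, at 8.56 against 10.01 over all entries, and higher in replicate 2, at 13.3 against 10.6. Replicate 2 was the higher at 53 of the 77 entries (68.8%), and at 53.1% of all entries. Spearman's rho between the replicates' signals was 0.320 over the 77 entries and 0.222 over all; neighbouring entries share libraries, and the 77 rest on 76 distinct entries of replicate 1 and 75 of replicate 2.

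The single-replicate rankings held some of these entries. Replicate 1's own ranking had an overlapping entry for 32 of the 77, replicate 2's for 35, both for 16 and neither for 26. Over all entries of the replicate ranking, 44.6% had one in replicate 1's and 39.5% in replicate 2's. The share in neither was not computed over all entries. The share found in both was 20.8%, and it was also 20.8% over all entries. By gene, both rankings held 5 entries of lin-12, 3 of glp-1, 4 of lag-1, 3 of sel-8 and 1 of sel-10. The lowest IDR of a matched entry at the 4 genes other than lag-1 was 0.581, in replicate 1 at sel-8. An entry of replicate 2's own ranking that matched none of the 77, at III:3620065-3620274 in sel-8, had a lower IDR of 0.336, with a signal of 12.9. The largest IDR of the replicate ranking, 0.683, was reached by 25 of the 77 entries (32.5%) and by 40.4% of all.

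Sites stood near a summit at 14 of the 77 entries, or 18.2%, against 6.44% of all entries. These shares were not matched for site density, which was above the gene median of 0.282 per kb in the spans of all 5 genes and highest in lin-12 (1.06) and lag-1 (1.04). The share was 20% of the lag-1 entries and 17.3% of the 52 entries of the other 4 genes, and it was 0 of 15 at glp-1. Entries with at least 2 sites numbered 3, all at lag-1, against 0.338% of the ranking. The spans held 44 sites, 23 of them GTGGGAA, and 18 lay within 100 bp of a summit. Of the 77 summits, 35 lay in introns, 25 in coding sequence, 9 upstream, 4 in a 5′ UTR and 4 in a 3′ UTR. These places were not counted over all entries or set against the make-up of the spans. The median GC content was 39.3%, against 37.8% over all entries.

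The 5 genes were set beside 43 other genes of the pathway, of which 42 could be matched to an annotation. This list, too, was chosen with earlier results of these data known. A peak lay in the spans of 3 of these 42, against 1.49% of all protein-coding genes. dos-3, which encodes a secreted co-ligand of the DOS family, had 1 with a signal of 79.9. epn-1, the gene of the worm's epsin, an adaptor in endocytosis, had 2 with 69.6 and 61.3, and sygl-1 had 1 with 100.3. The dos-3 peak and both epn-1 peaks held no site within 100 bp of the summit. No ligand gene (10), protease gene (7) or gene of a ubiquitin partner of SEL-10 (2) had a peak. Of the 13 annotated targets, sygl-1 alone had a peak. The strongest entry held at least 2 sites at 3 targets, sygl-1 among them. The median of the strongest signal was 33.1 for the ligands, 45.6 for the co-ligands, 36.0 for the proteases, 39.2 for trafficking genes and modifiers, 28.0 for the targets and 33.2 for the ubiquitin partners. The strongest signals of lin-12, glp-1, sel-8 and sel-10, from 35.9 to 40.1, fell among these medians.

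**Figure D5:**
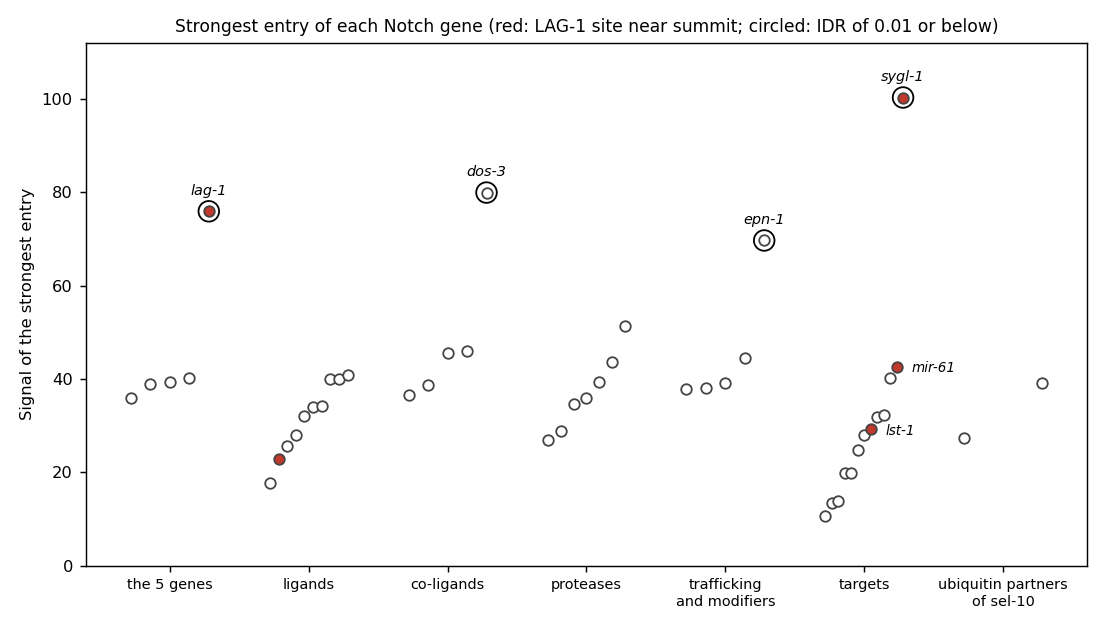
Signal of the strongest entry (vertical axis, the authors' unit) for each of the 5 genes and 42 other Notch pathway and target genes, by role (horizontal axis), in red where a LAG-1 site lay within 100 bp of the summit and ringed where the entry was a peak. lag-1 (75.9), dos-3 (79.9), epn-1 (69.6) and sygl-1 (100.3) are ringed, and of these only lag-1 and sygl-1 are red.

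The LAG-1 peak in the first intron of lag-1 bears on whether LAG-1 acts on its own gene. The measurements cover binding in intact worms at 1 stage; lag-1 transcript levels and the effect of losing the intronic sites were not tested.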

How the data were processed

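Peak lists of a ChIP-seq experiment on tagged LAG-1 (2 biological replicates of 1 group) were analysed. Per the deposited notes, the lists are on ce11 and came from reads of the precipitate and a control. Neither aligner nor peak caller is named (not given in the sources used here). The deposited signal is the caller's strength per entry. The deposited score is a whole number that follows the IDR, and the authors' lists keep scores from 830. The deposited −log10 values give the global IDR, from which the IDR was computed.

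The columns of compared signals carry no header: 56113 entries of the first list matched replicate 1's own ranking in position and signal and 0 matched replicate 2's, and 49552 of the second matched replicate 2's and 0 replicate 1's. They were therefore read as replicate 1 and replicate 2. Of 391 ranked entries at an IDR of 0.01 or below, the authors kept 291. What removed the others is not stated.

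Gene models came from Ensembl release 115 (mir-61 from RefSeq's gene table) and sequence from RefSeq's WBcel235 assembly, within whose chromosomes all entries lie. RTGGGAA was searched on both strands, and overlapping matches were all counted. Entries were matched between rankings by at least 1 bp. Text names the 5 genes with their 3 strongest entries, every entry at an IDR of 0.05 or below and every entry with a site, the pathway genes with a peak and the genes with a peak of at least 2 sites. The genes, lists and rules were chosen with earlier results of these data known, so values are descriptions, with no test. Counting was checked on simulated data. Computations ran in Python 3.11.15 with pandas 2.3.3, NumPy 2.4.6 and SciPy 1.17.1, and figures were drawn with matplotlib 3.10.9. Alternatives covered the ranking, each replicate alone, the upstream reach, the IDR threshold, merging, the overlap rule, and the window and letters of the site.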

Additional observations from a re-analysis of the deposited data

How the results depend on the processing

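Without replicate 1 or without replicate 2, that is in the ranking of the remaining replicate alone, the 5 genes had 36 to 40 entries in place of 77, and 0 to 1 of the genes had a peak. It was 0 when replicate 2 was left out, since the lag-1 peak then had an IDR of 0.271, which compares lists within replicate 1. In either ranking 2 of the 5 genes had a strongest entry with a site (2 to 2, against 1), lag-1 with sel-8 in replicate 1's and with lin-12 in replicate 2's, and 1 of the 42 pathway genes had a peak (1 to 1, against 3). These rankings hold signals of 1 replicate, so the strongest lag-1 signal was 29.7 to 46.8 in them. At an IDR of 0.05 or below, without the authors' list as a filter, 6 of the 42 pathway genes had an entry. The share over all protein-coding genes was computed neither at that IDR nor in the single-replicate rankings. The share of entries with a site, 18.2% within 100 bp, was 10.4% within 50 bp, 35.1% within 250 bp and 9.09% for GTGGGAA alone. Within 250 bp 2 of the 5 genes had a strongest entry with a site. The shares over all entries and all genes were not computed for these settings, so whether the contrast with the ranking at large holds there was not tested. The pooled ranking, 500 bp upstream, an IDR of 0.005, merging, TGGGAA and the stricter overlaps left the other counts within 1.5 times, with 12 to 14 entries in both single-replicate rankings against 16. The pooled ranking draws on the same 2 replicates and gave each of the 5 genes the same strongest signal, so it is not a separate check. No paired analysis was possible because the series has 1 group. Unknown depth limits what the absence of a peak at the other 4 genes shows.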
